A study of Mus musculus with 12 samples.

Results

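The baseline RNA of mouse embryonic stem cells is described here from the 3 libraries of the Cas9 control group, chosen by their titles, out of 12 libraries in 4 groups. The cells were of the 129S6/SvEvTac background. They carried a reporter that the labels call GFP_5xT71BS (yGlob) and a stably transfected FLAG-tagged Cas9 linked to a blasticidin resistance gene. They were kept on gelatin, with no feeder layer named, in medium with fetal bovine serum and leukaemia inhibitory factor (LIF). No guide is named for this group, so the cells are the Cas9-bearing baseline of the series and not untouched parental cells. The other groups were Trim71-/- cells with Cas9, and control or Trim71-/- cells with Tnrc6a overexpressed. None of their libraries enters the level or spread of a gene below. Their counts do bear on which genes are listed, since the lowest listed gene had 46 counts over all 12 libraries. Pramel35, for example, is listed with 0, 0 and 0 counts in the control libraries. Shares of listed genes, medians over lists and rank percentiles depend on that listing. The input note of each control library names the same cells as the growth protocol. Each library came from 1 of the triplicate wells, and nothing in the labels says that the wells were separate lines or days, so every SD measures the spread between wells. The labels name 1 reporter line, which limits what the values say of stem cells in general. Neither the Cas9 nor the reporter transcript was analysed here.

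Embryonic stem cells derive from the inner cell mass and divide without limit while they keep the capacity to form all tissues of the embryo. Pou5f1 (Oct4), Sox2 and Nanog form the centre of their transcription network, and the Klf and Esrrb factors of the preimplantation embryo stabilise it. LIF acts through the receptor pair Lifr and Il6st on Stat3, whereas FGF4 acts through ERK and moves the cells toward differentiation. In serum and LIF the cultures are known to be mixed, with rare cells that resemble the 2-cell embryo and others that lean toward primitive endoderm.

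Stranded libraries were made from total RNA, with 27320667, 20758151 and 27181984 counts on genes in replicates 1, 2 and 3. Levels are the authors' RPKM, that is reads scaled by gene length and by library size, the unit in which genes of different length can be compared. Of 20529 genes in the table, 20330 to 20380 had at least 1 count in a library. The wells lay close together. Across the 14089 genes at or above 1 RPKM in all 3 libraries, Pearson's r of log2 RPKM was 0.993 to 0.995 between wells, a description across genes of 1 group, and the median absolute log2 difference was 0.08. Beyond counting noise the wells varied with a biological coefficient of variation of 0.0379. Genes whose lowest library held from 1000 to under 10000 counts had a median coefficient of variation of 3.01%, against 1.70% for counting alone. Those with 10 to under 100 had 16.3%, against 13.0% for counting alone, so low genes below carry a wide error. For a gene of 1 kilobase, 1 count was worth 0.0425 RPKM on average over the libraries. Intervals and floors of counts cover counting error only, since the reads carry no molecular identifiers.

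A small number of genes took much of the RNA. Of the 20529 listed genes, 14089 (68.6%) stood at 1 RPKM or more in all 3 libraries, 6162 at 10 or more, 682 at 100 or more and 26 at 1000 or more. That share of 68.6% is the background for each count of list members at 1 RPKM given below. Those counts likewise cover listed genes only and leave out list members absent from the 20529. The 100 highest genes held 27.2% ± 0.503 of the summed RPKM (SD, n = 3), and the 100 genes with most reads held 16.6% ± 0.121 of the counts. Among 15155 protein-coding genes, 10638 reached 1 RPKM in all libraries and 400 reached 100. Long noncoding genes were lower, with 376 of 1424 at 1 RPKM and a median of 0.437. Pseudogenes numbered 3651, and 2805 of them reached 1 RPKM. Their median of 5.54 RPKM was above the 4.08 of protein-coding genes, but these medians are not on an equal footing. The median length was 699 bases for pseudogenes and 4251 for protein-coding genes. The table holds no gene under 46 counts over 12 libraries, and a given count is worth more RPKM in a shorter gene. How far this sets the difference was not tested. Pseudogenes held 8.08% ± 0.0341 of all counts. How those reads relate to the genes the pseudogenes were copied from is taken up further on.

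**Figure D1:**
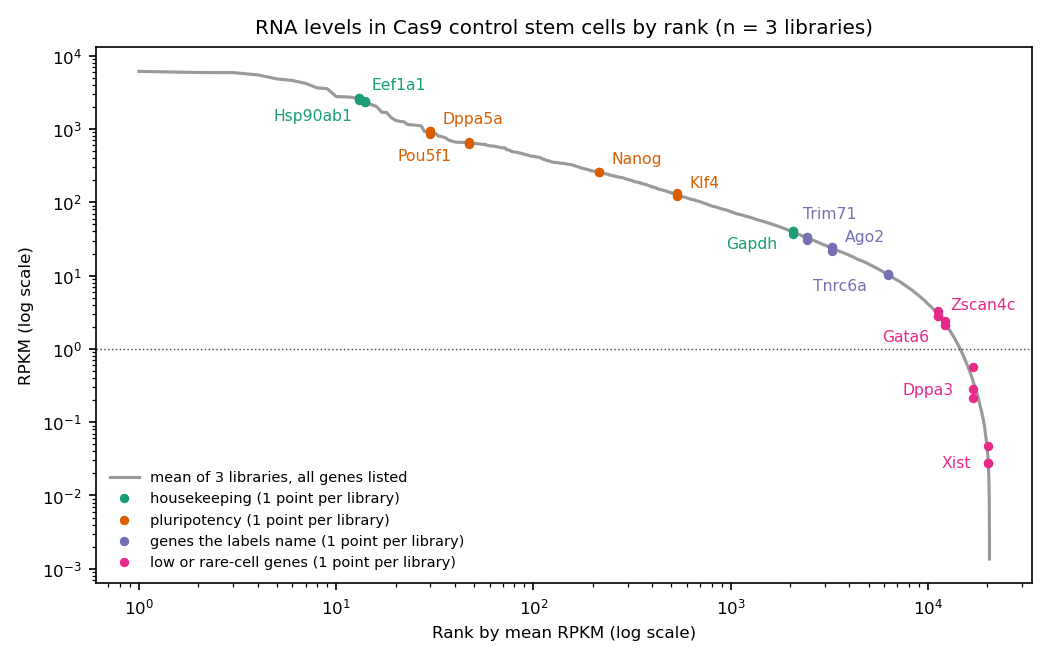
RPKM (log scale) of all listed genes against their rank by mean RPKM (log scale), with the grey line for the mean of 3 libraries and 1 point per library for 14 example genes; the dotted line is 1 RPKM. Dppa5a and Pou5f1 stand within the 50 highest entries, while Gapdh stands at rank 2072 and Xist near the end.

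Translation and protein folding supplied most of the highest nuclear protein-coding genes. Eef1a1, the elongation factor that brings aminoacyl-tRNA to the ribosome, was at 2613, 2625 and 2525 RPKM in replicates 1, 2 and 3 (mean 2588 ± 54.3, rank 13). Hsp90ab1, the constitutive cytosolic HSP90 chaperone, followed at 2385, 2312 and 2326 RPKM. The ranges of these genes over the 3 wells did not overlap. Next among nuclear protein-coding genes came Rplp1, an acidic protein of the ribosomal stalk, at 2033 ± 143 RPKM, then Ptma (prothymosin alpha) at 1311 ± 6.58 and Rpl8 at 1272 ± 30.6. Among the next were Ftl1, the ferritin light chain (1118 ± 21.6 RPKM), Npm1, the nucleolar chaperone nucleophosmin (916 ± 40.9), and Actb, the cytoskeletal actin (678 ± 28.0). Among the 100 highest entries were 22 cytosolic ribosomal proteins, 5 translation factors, 5 chaperones and 12 mitochondrially encoded genes. Only 2 members of the core pluripotency list were among these 100, Dppa5a and Pou5f1. The others were 30 pseudogenes, 8 entries typed as microRNA hairpins, 3 other noncoding genes, 12 other protein-coding genes and 1 nuclear gene of the respiratory chain, Atp5b, the beta subunit of ATP synthase, at 486 ± 9.59 RPKM.

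Cytosolic ribosomal proteins formed the highest nuclear family. Of 85 members, 84 reached 1 RPKM in every library and 73 reached 100, with a median of 296 RPKM against 3.84 over all listed genes. Behind Rplp1 and Rpl8 stood Rpl4 at 1256 ± 15.8 RPKM and Rps15 at 1151 ± 50.9, then Rplp0 at 801 ± 16.0. Members of this family are built into the ribosome in equal number, apart from the stalk proteins, yet Rpl8 stood at 1272 RPKM and Rpl30 at 42.6. With the stalk and paralogues included, RNA levels ranged from 2033 RPKM in the stalk protein Rplp1 to 26.0 in the paralogue Rpl22l1, with 1 exception given below. Reads counted on pseudogene copies, taken up below, are left out of these levels and of the order. With them added, Rplp0 would stand at 1542 ± 27.9 RPKM and Rpl30 would move from 42.6 to 151 ± 4.54. Rpl3l, a paralogue used in striated muscle, was the exception at 0.631, 0.277 and 0.705 RPKM. In the order of levels, 61 of 84 neighbouring pairs overlapped between wells, so the order within the family is mostly not resolved. The family held 4.82% ± 0.0605 of all counts.

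Translation factors had a median of 148 RPKM, with 12 of 21 at 100 or more. After Eef1a1 came Eef2, which moves the ribosome along the message, at 923 ± 19.4 RPKM. Eif5a, which helps the ribosome through difficult peptide bonds, was at 617 ± 11.6 RPKM, and Tpt1 at 482 ± 5.95. The isoform Eef1a2, used in muscle and neurons, stood at 0.806 ± 0.0675 RPKM. Initiation factors were uneven: the helicase Eif4a1 was at 408 RPKM and the cap-binding protein Eif4e at 26.5.

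Chaperones followed with a median of 221 RPKM, and 15 of 23 stood at 100 or more. Behind Hsp90ab1 were Hsp90aa1 (693 ± 22.3 RPKM), the mitochondrial chaperonin Hspd1 (654 ± 27.3) and Hspa8 (549 ± 17.1). The wells of Hsp90aa1 and Hspd1 overlapped. The stress-induced pair Hspa1a and Hspa1b, which are near-identical to each other, stood at 4.58, 5.81 and 4.72 RPKM and at 7.28, 7.56 and 6.28 RPKM, respectively. Cct6b, the testis form of a chaperonin subunit, was at 0.246, 0.459 and 0.268 RPKM and Hspa1l at 0.590, 0.736 and 0.656. The somatic subunit Cct6a stood at 246 RPKM.

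Mitochondrially encoded genes gave the highest levels of all, and some spread widely between wells. The mitochondrial genome encodes subunits of the respiratory chain, and the genes on it held 3.10%, 3.46% and 3.37% of counts in the 3 libraries. Reads counted on nuclear copies of these genes, given below, are not in that share. mt-Co1, a catalytic subunit of cytochrome c oxidase, had the highest mean RPKM of all genes, at 6093, 6039 and 6195 RPKM. mt-Atp6, a proton channel subunit of ATP synthase, stood at 5185, 6373 and 6073 RPKM, mt-Nd1 at 4116, 4943 and 4713 and mt-Cytb at 3962, 4361 and 4246. Replicate 1 was the lowest well in mt-Atp6, mt-Nd1 and mt-Cytb. In replicate 2 mt-Atp6 lay above mt-Co1, and without replicate 1 mt-Co1 was no longer first (99.9878 rank percentile, from 99.9976), so the order of these genes is not resolved. The short overlapping genes mt-Atp8 (1192, 2151 and 1698 RPKM) and mt-Nd4l (516, 790.5 and 691 RPKM) were also lowest in replicate 1. For mt-Atp8 the coefficient of variation was 28.6%, against a median of 3.01% for genes of 1000 to under 10000 counts. mt-Co1 itself varied by only 1.30%. Over the whole set of 23 genes, 12 of 22 neighbouring pairs overlapped between wells. The other subunit genes among the 25 highest protein-coding genes were mt-Co2 (3636 ± 76.0 RPKM), mt-Co3 (2765 ± 31.7), mt-Nd4 (2153 ± 205), mt-Nd2 (1696 ± 234) and mt-Nd5 (861 ± 119). mt-Rnr1 and mt-Rnr2, the mitochondrial ribosomal RNAs, were at 173 and 103 RPKM.

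Several of these mitochondrial genes have near-identical copies in the nuclear genome, and some copies held almost as many counts as the gene. Of 8 such copies, 7 lie side by side on chromosome 1. Gm10925 is identical to mt-Atp6 over its 678 bases. It had 92162, 85058 and 107765 counts where mt-Atp6 had 92021, 85855 and 107145. The same held for Gm28661 against mt-Co2 (61914, 49127 and 62222 against 63764, 50357 and 63957 counts) and for Gm28437 against mt-Co3 (55508, 43062 and 55498 against 56180, 43440 and 55718). In each library these identical pairs thus stood near equal counts. Gm28439, identical to part of mt-Nd4, held fewer, 27941, 27474 and 33500 against 69037, 63145 and 79244. Gm29216, which differs from mt-Co1 at 6 of 492 bases, had 62433, 45178 and 63262 counts, whereas mt-Co1 had 245316, 184567 and 247966 over its longer length. The stretches below are shown because they carry these results: the first pair is the same 60 bases in both places, and the second pair holds all 6 differences, in capitals. Sequences are 5′ to 3′ on the strand of the gene, from GENCODE transcripts on GRCm38. mt-Atp6 is shown at chrM:7997-8056 (plus strand), Gm10925 at chr1:24614522-24614581 (minus strand), mt-Co1 at chrM:6381-6440 (plus strand) and Gm29216 at chr1:24616138-24616197 (minus strand).
mt-Atp6: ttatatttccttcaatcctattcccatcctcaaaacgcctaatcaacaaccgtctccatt
Gm10925: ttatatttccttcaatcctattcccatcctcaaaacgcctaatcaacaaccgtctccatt
mt-Co1: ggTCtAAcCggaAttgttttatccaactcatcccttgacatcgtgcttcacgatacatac
Gm29216: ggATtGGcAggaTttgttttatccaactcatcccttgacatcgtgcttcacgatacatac

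Where a read fits both a source gene and its copy, its origin cannot be told apart from these files. The rule by which such reads were counted is not given in the sources used here. With the reads of its copy added, mt-Atp6 would stand at 11749 ± 1214 RPKM, and 50.0% ± 0.195 of the pair's reads lay on the mitochondrial gene. mt-Co1, with its 2 copies added, would stand at 8746 ± 161 RPKM, below mt-Atp6.

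Nuclear genes with processed pseudogenes, copies of a spliced message that carry no introns, also had counts on their copies. Of the 3651 pseudogenes, 1356 matched a protein-coding transcript at 97% identity or more over at least 50% of their length, and these held 76.8% of all pseudogene counts. They fell on 758 source genes. Of the 190 source genes whose summed family reached 100 RPKM, 15 had under 50% of the family's reads on the source gene, and the median was 74.0%. Gapdh, the glycolytic enzyme often used as a reference gene, held the lowest share of these 190. It had 36 matched copies, stood at 40.2, 40.7 and 37.3 RPKM and held only 17.3% ± 0.155 of its family's reads. With those reads added it would stand at 228 ± 12.8 RPKM and move from rank 2072 to rank 258. Rpl29, of the large ribosomal subunit, held 22.4% ± 0.958 with 13 copies. Rps3a1, a protein of the small ribosomal subunit, held 22.6% ± 0.317 of its family's reads and would move from 349.8 to 1545 ± 34.5 RPKM. Tuba1b, an alpha-tubulin, held 31.1% ± 0.371 and would move from 341 to 1095 ± 27.0 RPKM. The heat shock cognate Hspa8 held 45.6% ± 0.231 and would move from 549 to 1204 ± 34.4 RPKM. Eef1a1 held more of its own reads, 80.6% ± 0.263, and would move to 3212 ± 57.4 RPKM. Ahcy, the enzyme that clears S-adenosylhomocysteine, held 47.1% ± 0.569 with 2 copies. Among pluripotency genes with matched copies, Nanog held 97.8% ± 0.187 of its family's reads, Dppa5a 97.4% ± 0.540, Tdgf1 88.1% ± 0.153, Zfp42 86.1% ± 0.210, Dppa4 79.2% ± 0.725 and Dppa2 78.0% ± 0.705.

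**Figure D2:**
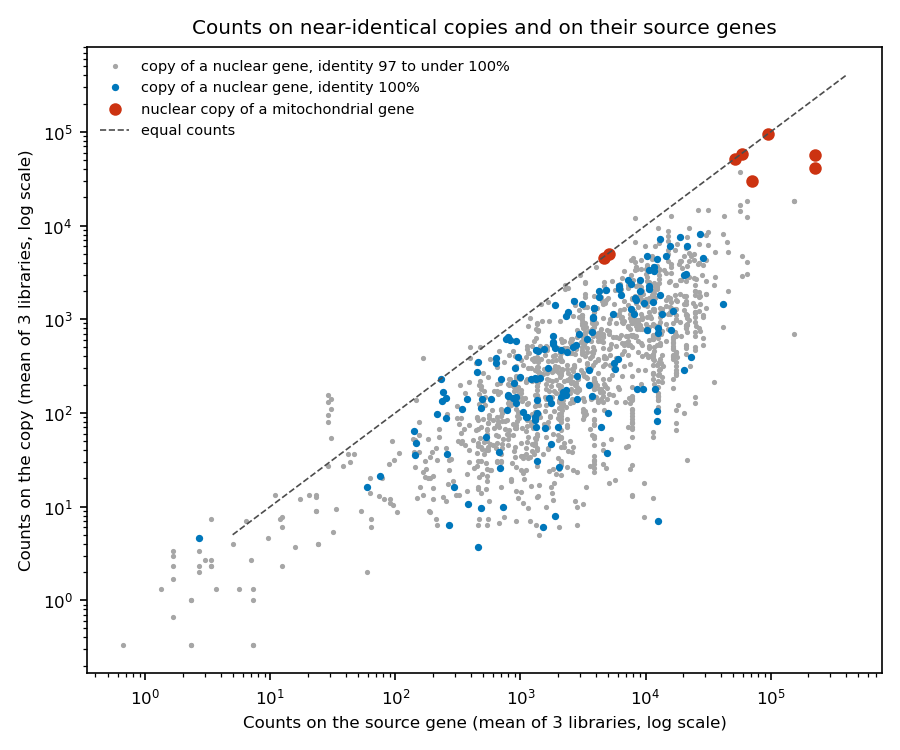
Mean counts of 3 libraries (log scales) on each near-identical copy against its source gene, with 1 point per copy; the dashed line is equal counts. Of the 8 nuclear copies of mitochondrial genes (red), the identical copies of mt-Atp6, mt-Co2 and mt-Co3 lie on the line, and most copies of nuclear genes lie below it.

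Entries typed as microRNA hairpins overlapped abundant messages in the same way. Gm26377 (5561, 5629.7 and 5244 RPKM, chr9:78478528-78478635, GRCm38) lies inside an exon of Eef1a1. Gm22133 (2786, 2662 and 2668 RPKM) lies inside an exon of Ftl1 and Gm27597 (1195, 1102 and 1119 RPKM) inside an exon of Rpl19, each on the same strand. Whether reads of these messages make up those levels was not tested.

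Core pluripotency genes were high throughout. All 14 members reached 10 RPKM in every library, 7 reached 100, and their median of 153 RPKM lay at the 97.1 rank percentile, the share of listed genes with a lower level. Dppa5a, an RNA-binding protein of the KH family, was highest at 928, 845 and 928 RPKM (rank 30). Replicate 2 was the low well in Dppa5a. Pou5f1, the POU factor without which pluripotency is lost, was at 670.2, 633 and 652 RPKM (mean 652 ± 18.5, rank 47). Its 3 wells lay below all 3 wells of Dppa5a and above those of every other listed transcription factor of the core and naive lists.

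Utf1, a chromatin-bound factor of undifferentiated cells, stood at 306, 312 and 282 RPKM. Tdgf1 (Cripto), the co-receptor of Nodal, was at 275, 274 and 274 RPKM, the closest agreement between wells in the list. Nanog stood at 256, 261 and 256 RPKM and L1td1, an RNA-binding protein derived from a LINE-1 element, at 244, 238 and 259. The wells of Nanog and L1td1 overlapped, so their order is not resolved. Sox2, the partner of Pou5f1 on DNA, stood at 224, 227 and 224 RPKM, below both. Pou5f1 lies at chr17:35506018-35510772, Nanog at chr6:122707489-122714633 and Sox2 at chr3:34650405-34652461 (GRCm38). An exon of Gm19553 overlaps Pou5f1 on the opposite strand, so reads of the pair may not be separable.

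The other core genes stood under 100 RPKM. Lin28a, which blocks maturation of let-7 microRNAs, was at 80.4 ± 2.29 RPKM, and the zinc finger factor Sall4 at 68.4 ± 0.231. Dppa4 and Dppa2, which act as a pair on chromatin, stood at 55.0, 53.6 and 53.3 RPKM and at 52.3, 50.7 and 52.0 RPKM, respectively, and their wells did not overlap. With the reads of their copies added, Dppa4 would stand at 68.1 ± 1.78 RPKM and Dppa2 at 66.2 ± 1.69, within each other's spread. Gdf3, a ligand of the TGF-beta family, was at 39.5 RPKM and Fbxo15, a known Pou5f1 target, at 37.9. Gdf3 and Fbxo15 overlapped. In the whole list 2 of 13 neighbouring pairs overlapped. Of the Dppa family, 3 of 4 genes reached 1 RPKM.

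Naive pluripotency genes, those of the preimplantation epiblast, were mostly high as well. Of 14 members, 13 reached 10 RPKM in all wells, with a median of 64.1 RPKM. Zfp42 (Rex1), the classic marker of undifferentiated cells, led at 334, 344 and 349 RPKM. Klf2 followed at 168, 161 and 154 RPKM, the orphan receptor Esrrb at 139, 140.0 and 137 and Klf4 at 122, 133 and 126. These 4 did not overlap. Nr0b1 (Dax1) was at 103 ± 4.70 RPKM, Tfcp2l1 at 75.8 ± 1.24, the T-box factor Tbx3 at 71.2 ± 2.29 and Klf5 at 57.0 ± 0.317. Prdm14, which holds back FGF signalling and DNA methylation, stood lower at 14.8 ± 0.835 RPKM. Dppa3 (Stella), a maternal factor that marks a subset of serum-grown cells, was the exception at 0.559, 0.283 and 0.216 RPKM.

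Genes of the formative and primed states, which the epiblast enters after implantation, were low apart from Foxd3, and 6 of 7 reached 1 RPKM. Foxd3 stood at 39.5 ± 1.43 RPKM, a gene also used by undifferentiated cells. Otx2 stood at 7.12, 7.84 and 7.43 RPKM, Zic2 at 5.08 and Sox3 at 3.60. Pou3f1 (Oct6) was at 2.25 RPKM. Lef1, a Wnt effector of the primed state, stood under the floor at 0.231, 0.362 and 0.307 RPKM, and Fgf5 and Cer1 were not analysed here. The median of the 7 genes was 3.60 RPKM, near the 3.84 of all listed genes.

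**Figure D3:**
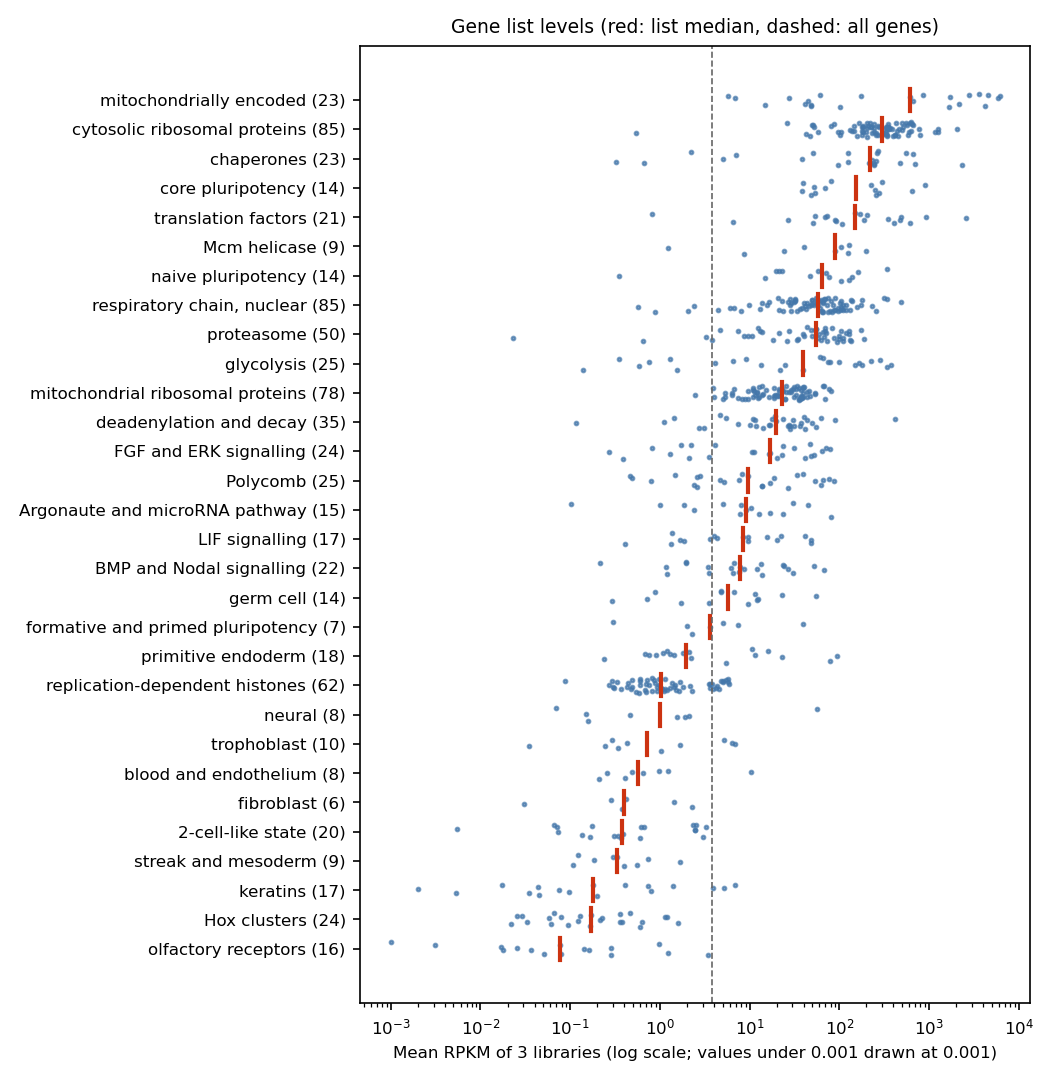
Mean RPKM of 3 libraries (log scale) for members of 30 gene lists, 1 point per gene, with the number of listed members in brackets; red bars are list medians and the dashed line is the median of all listed genes. Mitochondrially encoded genes, ribosomal proteins, chaperones and core pluripotency genes stand at the top, and Hox genes, keratins and olfactory receptors at the bottom.

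Within transcription factor families 1 or a few members stood far above the rest. In the Sox family 11 of 18 genes reached 1 RPKM, in the Klf family 14 of 17 and in the Fox family 16 of 35, against 68.6% of all listed genes. Sox2 was at 225 RPKM and the next, Sox15, at 14.0 ± 1.40. Sox4 stood at 11.9 ± 0.393 RPKM and Sox12 at 8.54 ± 0.366, and the median of the family was 1.51. Sox9 and Sox10, factors of cartilage and neural crest, stood at 0.204, 0.110 and 0.0560 RPKM and at 0.151, 0.215 and 0.202 RPKM, respectively. Klf2, Klf4 and Klf5 were followed by Klf9 at 40.4 ± 2.45 RPKM, while Klf1, the erythroid member, was at 0.401, 0.132 and 0.479 RPKM and Klf17 at 0.192, 0.0843 and 0.0483. Foxd3 led the Fox genes, ahead of Foxp4 (30.7 ± 1.71 RPKM), Foxo4 (17.7 ± 0.509) and Foxh1 (14.8 ± 1.80), the partner of Smads in Nodal signalling.

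RNAs for each step of LIF signalling were present, and the feedback inhibitor Socs3 was highest. The receptor chains Lifr and Il6st stood at 8.70, 10.3 and 9.89 RPKM and at 8.43, 8.80 and 8.22 RPKM, respectively, and replicate 1 was the lowest well of Lifr. Of the Janus kinases, Jak1 stood at 9.47 ± 0.476 RPKM, Tyk2 at 4.05 ± 0.278, Jak3 at 3.63 ± 0.319 and Jak2 at 1.67 ± 0.126. Stat3, the transcription factor that LIF activates, was at 20.1, 20.7 and 20.3 RPKM, well above Stat5b (1.86 ± 0.0574 RPKM). Stat5a was under the floor at 0.403, 0.361 and 0.471 RPKM. Socs3, the feedback inhibitor that Stat3 induces, led the list at 48.0, 48.5 and 49.5 RPKM, and the adaptor Gab1 at 48.0, 48.0 and 48.4 overlapped it. Grb2, another adaptor, stood at 40.9 ± 0.460 RPKM and the kinase Pim1, a Stat3 target, at 22.5 ± 0.526. Lif itself was at 1.27, 1.35 and 1.46 RPKM. Of 17 members 16 reached 1 RPKM, with a median of 8.48.

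**Figure D4:**
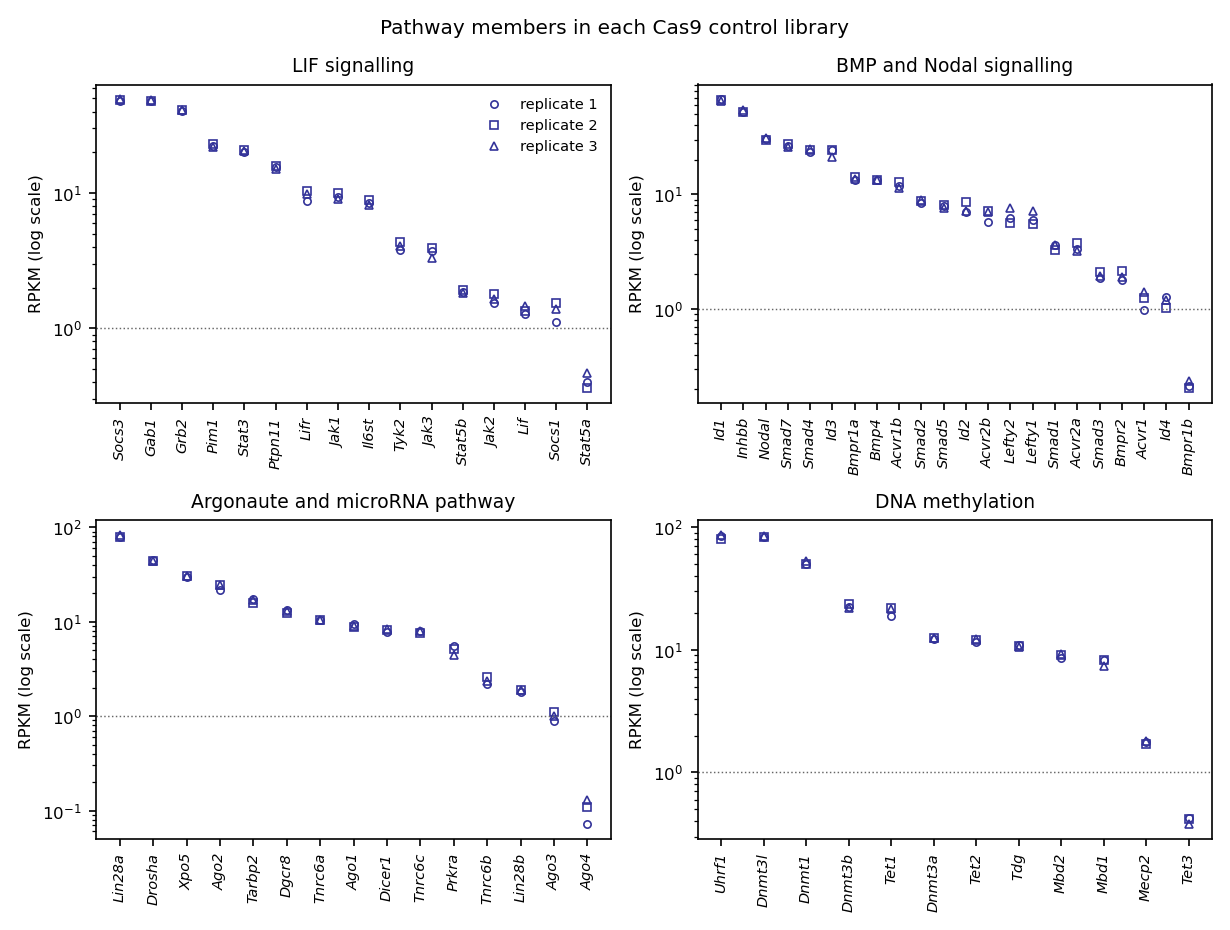
RPKM (log scale) in each of the 3 control libraries for members of 4 lists, 1 of them left out, ordered by mean; circles, squares and triangles are replicates 1, 2 and 3, and the dotted line is 1 RPKM. The wells of a gene lie close together against the differences between genes, with wider spread in low members such as Ago4 and Socs1.

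In BMP and Nodal signalling 20 of 22 genes reached 1 RPKM, with a median of 7.73, and a target and a ligand were highest. Id1, a direct BMP target that opposes differentiation factors, was at 68.0, 67.2 and 64.8 RPKM, and Id3 at 24.6, 24.2 and 21.3. Id2 and Id4 were lower, at 7.62 and 1.16 RPKM. Of the ligands, Inhbb, the beta-B subunit of activin, was at 51.9, 52.5 and 53.9 RPKM, Nodal at 30.5, 29.8 and 30.8 and Bmp4 at 13.4, 13.4 and 13.4. Bmp4 had the smallest spread of these. Lefty1 and Lefty2, the inhibitors that Nodal induces, stood at 6.02, 5.49 and 7.11 RPKM and at 6.22, 5.61 and 7.61 RPKM, respectively, overlapped, and were highest in replicate 3. Bmpr1a led the receptors at 13.8 ± 0.485 RPKM, followed by Acvr1b at 11.98 ± 0.675, while Bmpr1b was under the floor at 0.212, 0.204 and 0.233 RPKM. Smad4, the common partner of the pathway, was at 24.3 RPKM, above Smad2 (8.68), Smad5 (7.85), Smad1 (3.51) and Smad3 (1.97). Smad7, the inhibitory Smad, stood at 26.8 ± 0.919 RPKM.

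FGF and ERK genes stood at a median of 16.7 RPKM, and 21 of 24 reached 1. The targets of ERK were highest: the ETS factors Etv4 and Etv5 at 80.6, 80.2 and 76.7 RPKM and at 62.1, 67.0 and 62.9 RPKM, respectively, and the feedback inhibitor Spry2 at 72.9, 70.2 and 67.7. Spry4 and Dusp6, which also dampen ERK, were at 47.5 ± 1.78 and 41.4 ± 1.23 RPKM. Fgf4, the ligand that stem cells make, was at 53.3, 51.0 and 51.6 RPKM. Of its receptors, Fgfr1 stood at 10.8, 11.7 and 10.7 RPKM, Fgfr2 at 2.08, Fgfr4 at 1.29 and Fgfr3 at 0.263, 0.219 and 0.329. The immediate-early genes Egr1 and Fos, which respond to serum and handling within minutes, stood at 14.8, 18.6 and 15.9 RPKM and at 1.83, 2.73 and 2.05 RPKM, respectively and were highest in replicate 2. Fgf8 was under the floor at 0.625, 0.2996 and 0.229 RPKM.

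Wnt signalling was led by its effector, with 18 of 23 genes at 1 RPKM or more and a median of 7.60. Ctnnb1 (beta-catenin), which also links cadherins to actin, was at 192, 200.0 and 195 RPKM. The receptors Fzd5 and Fzd7 stood at 53.6 ± 1.68 RPKM and at 39.8, 40.1 and 40.1 RPKM, respectively, and Fzd2 at 1.16 ± 0.0546. Gsk3a was at 48.1 ± 0.740 RPKM against 6.52 ± 0.334 for Gsk3b. Of the TCF factors, Tcf7 stood at 14.4 ± 0.665 RPKM, the repressor Tcf7l1 (Tcf3) at 10.8 ± 0.361 and Tcf7l2 at 1.68 ± 0.0461. The feedback gene Axin2, a common readout of the pathway, was at 2.00, 1.95 and 1.90 RPKM, and the targets Sp5 and Lef1 were under the floor, Sp5 at 0.402, 0.433 and 0.165 RPKM. The ligand Wnt3 was at 0.0998, 0.164 and 0.100 RPKM.

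Markers of other states and lineages were mostly low, and some were detected in every well. In bulk RNA, a few cells with much of an RNA and many cells with little of it cannot be told apart. Genes of the 2-cell-like state had a median of 0.375 RPKM, and 6 of 20 reached 1 RPKM in all wells, each of them a Zscan4 gene. Zscan4f stood at 3.51, 3.15 and 3.19 RPKM and Zscan4c at 2.83, 3.31 and 2.83, and their near-identical paralogues Zscan4a, b, d and e at 2.50, 2.46, 2.36 and 2.48. Duxf3 (Dux), the factor that opens this state, stood at 0.0427, 0.0562 and 0.114 RPKM. Zfp352 was at 0.253, 0.155 and 0.0848 RPKM and Tcstv1 at 0.110, 0.217 and 0.0828. Tdpoz1 had 1 count in the 3 libraries, under the floor of 3 counts per library, which is worth 0.0645 RPKM for this gene.

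Primitive endoderm, an extraembryonic lineage, was represented unevenly, with 12 of 18 genes at 1 RPKM and a median of 1.97. Its basement membrane genes were high, with Sparc at 92.9, 97.7 and 90.1 RPKM and the laminin chain Lamc1 at 74.2, 81.6 and 80.6, followed by Col4a1 at 22.9 ± 0.620 and Lama1 at 15.8 ± 0.412. Its defining transcription factors stood far lower: Gata4 was at 5.37, 5.74 and 5.20 RPKM, Gata6 at 2.12, 2.13 and 2.43, Sox7 at 1.37, 1.47 and 1.498 and Sox17 at 1.28, 1.21 and 1.15. The receptor Pdgfra was at 0.980, 1.22 and 1.03 RPKM, below 1 in replicate 1. Hnf4a, of the visceral endoderm, stood at 0.230, 0.188 and 0.296 RPKM and Foxa2 at 0.745, 0.661 and 0.651, and Afp and Ttr were not analysed here.

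Of 13 trophoblast genes 10 were listed, and 4 of these 10 reached 1 RPKM in all wells. These were the simple keratins Krt8 (6.79 ± 0.417 RPKM) and Krt18 (5.17 ± 0.607), Tfap2c (6.38 ± 0.572), which germ cells also use, and Eomes (1.67 ± 0.225). The defining factor Cdx2 was at 0.373, 0.559 and 0.359 RPKM and Gata3 at 0.463, 0.267 and 0.301. Of 13 neural genes 8 were listed, and 4 of these 8 reached 1 RPKM. Tubb3, a beta-tubulin with wider use, stood at 56.8 ± 1.25 RPKM, Sox1 at 1.96, 2.197 and 2.21 and Nes at 2.04, 1.76 and 1.96. The adhesion molecule Ncam1 was at 1.56 ± 0.0401 RPKM. Pax6, a defining neural factor, was lower at 0.148, 0.125 and 0.172 RPKM. Of 12 streak and mesoderm genes 9 were listed, and 1 of these 9, Eomes, reached 1 RPKM in every well. The receptor Kdr was at 0.736 ± 0.110 RPKM and Gsc at 0.398 ± 0.264. Brachyury (T) stood at 0.348, 0.306 and 0.250 RPKM and Mixl1 at 0.602, 0.485 and 0.572.

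The lists for fibroblasts and blood check for other cells in the wells. Col1a2, a main collagen of fibroblasts, stood at 0.0309, 0.0163 and 0.0435 RPKM and Col1a1 at 0.386, 0.239 and 0.506. Of 12 fibroblast genes only 6 were listed. Of these 6, 2 reached 1 RPKM in all wells, Thy1 (2.27 ± 0.330 RPKM) and Pdgfrb (1.45 ± 0.116). Fbn1, a matrix protein, was at 0.423 ± 0.0496 RPKM. Of 11 blood and endothelial genes 8 were listed, and 2 of these 8 reached 1 RPKM. Pecam1, an adhesion molecule that stem cells also carry, stood at 10.4 ± 0.664 RPKM and Tek at 1.24 ± 0.162, with Cd34 at 0.983 ± 0.0245 and the embryonic globin Hbb-bh1 at 0.653 ± 0.0922. The blood factors Spi1 and Gata1 were at 0.285, 0.150 and 0.329 RPKM and at 0.488, 0.518 and 0.443 RPKM, respectively. The Gata family had 2 of 5 listed members at 1 RPKM, Gata4 and Gata6.

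Hox genes, which pattern the body axis, were nearly silent. The table held 24 of 39 annotated members, with a median of 0.169 RPKM. Hoxc13 (1.86, 1.38 and 1.49 RPKM) and Hoxb9 (1.27, 1.20 and 1.11) reached 1 RPKM in all wells. Hoxc12 stood at 0.558, 0.637 and 0.711 RPKM. Olfactory receptors were lower still, with 16 of 1135 annotated genes in the table and a median of 0.0779 RPKM. The highest were Or5p58 at 3.43 ± 0.224 RPKM and Or6c70 at 1.24 ± 0.239, which reached 1 RPKM in all wells, then Or8d4 at 0.970 ± 0.170 and Or5w22 at 0.288 ± 0.139. Of 17 listed keratins (53 are annotated), Krt8, Krt18, Krt42 (3.87 ± 0.452 RPKM) and Krt17 (1.39 ± 0.298) reached 1 RPKM. Claudins were led by Cldn4 (10.5 ± 0.217 RPKM), Cldn12 (9.17 ± 0.393) and Cldn6 (3.57 ± 0.218), with 3 of 11 listed claudins at 1 RPKM in all wells (33 are annotated). Cldn7 stood at 0.926, 0.779 and 0.674 RPKM and Cldn5 at 0.406, 0.428 and 0.136.

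Of the germ cell list 11 of 14 genes reached 1 RPKM, near the 68.6% of all listed genes, with a median of 5.76 against 3.84 over all listed genes. Tex19.1, which restrains transposons in germ cells and placenta, led at 53.2, 57.1 and 56.3 RPKM. Dmrt1 stood at 22.8 ± 0.778 RPKM, the RNA helicase Ddx4 (Vasa) at 12.5 ± 0.0993 and the receptor Kit at 12.1 ± 0.602, and Ddx4 and Kit overlapped. The meiotic genes Stra8 and Sycp3 were at 9.11, 9.25 and 10.3 RPKM and at 4.28, 5.32 and 4.86 RPKM, respectively. Prdm1 (Blimp1), which specifies primordial germ cells, was under the floor at 0.296, 0.245 and 0.346 RPKM, as was Tex101 at 0.857, 0.488 and 0.792.

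Trim71 and Tnrc6a, the genes that the series manipulates, stood above the median of all listed genes, at the 88.2 and 69.6 rank percentile. Trim71, the TRIM-NHL protein that represses mRNAs in stem cells, was at 31.1, 33.3 and 34.0 RPKM (chr9:114507133-114564369, GRCm38, rank 2432). Its relatives Trim32, Trim3 and Trim2 were at 8.94 ± 0.421, 3.36 ± 0.158 and 2.77 ± 0.183 RPKM, with no overlap between any of the 4. Tnrc6a (GW182), the scaffold that ties Argonaute to the deadenylases, was at 10.4, 10.5 and 10.3 RPKM (chr7:123123885-123195296). Tnrc6c stood at 7.93, 7.62 and 7.88 RPKM and Tnrc6b at 2.19, 2.60 and 2.37. The 3 paralogues thus stood in the order Tnrc6a, Tnrc6c and Tnrc6b in every well. Per length, Trim71 RNA stood above that of each Tnrc6 gene.

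Argonautes differed widely, and 13 of 15 genes of the microRNA pathway reached 1 RPKM, at a median of 9.15. Ago2, the member able to cut its target, was at 21.8, 24.4 and 24.7 RPKM, lowest in replicate 1, and Ago1 at 9.51, 8.85 and 9.10. Ago3 stood at 0.887, 1.11 and 1.00 RPKM, on both sides of the floor, and Ago4 at 0.0718, 0.109 and 0.128. The first 3 did not overlap with each other or with Ago4. In microRNA processing, Drosha was at 45.6, 43.7 and 44.5 RPKM and its partner Dgcr8 at 13.2, 12.4 and 13.0. Xpo5, which exports precursors from the nucleus, stood at 30.3 ± 0.346 RPKM. Dicer1 was at 7.75, 8.11 and 8.39 RPKM, below its partner Tarbp2 (17.5, 15.9 and 16.8) and above the partner Prkra (5.51, 5.14 and 4.43). Lin28b stood at 1.85 ± 0.0455 RPKM against 80.4 for Lin28a. With no length correction the median rank of this list moved by 20.5 percentile points.

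Embryonic stem cells are known for microRNAs of the miR-290 cluster and the miR-17 cluster, several of which have related seeds. These libraries measure long RNA, and 2 hairpins of the miR-290 cluster were in the table with few counts: Mir291b at 17.0, 10.9 and 5.37 RPKM (35, 17 and 11 counts) and Mir295 at 7.23, 8.79 and 4.48 RPKM (13, 12 and 8 counts). Mir291b was highest in replicate 1 and its wells differed by more than those of most genes. Mir17hg, the host transcript of the miR-17 cluster, was at 8.04, 8.74 and 8.67 RPKM. The mature forms follow, from RefSeq on GRCm38.p6, with the seed (bases 2 to 8) in capitals. They are shown because the miR-290 and miR-17 forms share the letters AAGUGC in the seed, set 1 base apart.
mmu-miR-291b-3p: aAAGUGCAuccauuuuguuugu
mmu-miR-295-3p: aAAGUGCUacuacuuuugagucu
mmu-miR-17-5p: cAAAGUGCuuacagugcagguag
mmu-miR-20a-5p: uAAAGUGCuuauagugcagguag

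Messenger RNA decay factors were broadly present. Of 35 genes, 34 reached 1 RPKM in all wells and 26 reached 10, with a median of 19.7. Pabpc1, the poly(A)-binding protein, led at 409, 424 and 405 RPKM, and Pabpc4 followed at 88.5 ± 2.00. Upf1, the helicase of nonsense-mediated decay, was at 39.99, 36.4 and 36.2 RPKM, highest in replicate 1. In the CCR4-NOT deadenylase, Cnot9 stood at 55.0 ± 0.731 RPKM, the scaffold Cnot1 at 27.8 ± 1.37, and the nucleases Cnot8, Cnot6, Cnot7 and Cnot6l at 28.4, 19.12, 16.6 and 1.42. Ddx6, the helicase that links silencing to decapping, was at 38.5, 41.6 and 43.1 RPKM and the decapping enzyme Dcp2 at 31.3 ± 0.864. Of the 5′ to 3′ nucleases, nuclear Xrn2 stood at 49.0 ± 0.922 RPKM and cytoplasmic Xrn1 at 3.12 ± 0.200. Pabpc1l, the form of oocytes, was the only member under the floor, at 0.113, 0.0928 and 0.142 RPKM.

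Host genes of small nucleolar RNAs, whose spliced messages are known substrates of nonsense-mediated decay, had a median of 8.52 RPKM. Snhg6 was at 44.7 ± 0.835 RPKM, Snhg1 at 35.6 ± 1.54, Snhg3 at 34.5 ± 2.35 and Snhg5 at 27.8 ± 0.932. Gas5, of the same kind, was the highest entry of the long noncoding list at 78.7, 73.1 and 71.1 RPKM. Most of these genes overlap other annotated exons on the same strand, and 15 of 16 reached 1 RPKM. With the annotated exon union as length instead of the deposited length, Snhg5 moved by 7.21 rank percentile points, the largest such move among 235 named genes.

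The list of structural and long noncoding RNAs, which includes Gas5 and several Snhg genes, reached 1 RPKM in 22 of 25 members. Over all listed long noncoding genes it was 376 of 1424. Beside the snoRNA hosts the list was led by Platr10, a transcript found with pluripotency, at 65.0, 65.5 and 63.7 RPKM, and Epb41l4aos at 55.2 ± 3.29. Lncenc1, named for its enrichment in embryonic stem cells, was at 30.2 ± 1.17 RPKM and Platr3 at 11.4 ± 0.507. The nuclear RNAs Malat1 and Neat1 stood at 14.1, 12.9 and 17.1 RPKM and at 2.14, 1.84 and 1.85 RPKM, respectively, and Malat1 was highest in replicate 3. Structural RNAs transcribed by polymerase III were low. Rn7sk was at 6.03, 5.35 and 3.62 RPKM, Rpph1 at 3.61, 3.64 and 2.06 and Rmrp at 3.82, 2.34 and 1.37. Replicate 3 was the lowest well in Rn7sk, Rpph1 and Rmrp. Kcnq1ot1 and Miat stood under the floor at 0.0210, 0.0266 and 0.0178 RPKM and at 0.351, 0.305 and 0.245 RPKM, respectively.

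Replication-dependent histone genes, which make messages without a poly(A) tail, were also low. Of 62 genes, 21 reached 1 RPKM and none reached 10, with a median of 1.02 RPKM. H2ac19 led at 6.03, 5.84 and 5.78 RPKM, with H1f2 at 5.69 ± 0.0447, H2bc4 at 5.66 ± 0.648 and H4c9 at 5.47 ± 0.216. By contrast, other genes of replication were high: 9 of 9 Mcm helicase genes reached 1 RPKM, at a median of 89.3, with Mcm3 at 199.7 ± 6.51, Mcm5 at 129 ± 1.13, Mcm6 at 126 ± 1.64 and Mcm7 at 104 ± 3.90. Whether the library preparation bears on the low histone and polymerase III values was not tested.

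Cell cycle genes stood at a median of 9.21 RPKM, and 29 of 33 reached 1. Stem cells are known for a short G1 phase. Cdk4 was highest at 177, 178 and 177 RPKM and E2f4 next at 78.5 ± 0.468. Ccnb2 and Ccna2, cyclins of mitosis and S phase, stood at 77.6 ± 2.59 and 70.0 ± 1.37 RPKM, Ccnb1 at 64.3 ± 1.81 and Ccne1 at 63.1 ± 1.31. Of the D cyclins, Ccnd3 was at 42.4 ± 1.62 RPKM, Ccnd1 at 30.6 ± 0.725 and Ccnd2 at 1.62 ± 0.173. Mycn and Myc stood close, at 39.6, 41.7 and 38.5 RPKM and at 32.4, 33.5 and 36.7 RPKM, respectively, with no overlap. The inhibitors were lower: Cdkn1a (p21) was at 9.03, 9.62 and 8.98 RPKM, Cdkn1b (p27) at 7.81 ± 0.346, Cdkn2a at 3.94 ± 0.732 and Cdkn2c at 0.245 ± 0.0977. Rb1, the retinoblastoma protein, was at 3.27 ± 0.0622 RPKM. Ccnb3 and Ccna1 were under the floor, Ccna1 at 0.523, 0.386 and 0.547 RPKM, and Ccnb3 had 0, 0 and 4 counts.

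In the p53 and apoptosis list 18 of 19 genes reached 1 RPKM, at a median of 13.4. Bax, which opens the mitochondrial membrane, was at 158, 149.6 and 147 RPKM and overlapped its opponent Mcl1 (152, 145 and 154). Trp53 (p53) stood at 123, 125 and 116 RPKM, and its ubiquitin ligase Mdm2 at 36.3 ± 0.411. Bak1 was at 49.4 ± 1.59 RPKM. Bcl2 stood at 0.0629, 0.155 and 0.101 RPKM, while the related Bcl2l1 was at 13.4 ± 0.874. Survival genes of the Bcl2 family thus ranged from Mcl1 at the top to Bcl2 under the floor.

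DNA methylation genes were led by Uhrf1 and Dnmt3l, and 11 of 12 reached 1 RPKM. Uhrf1, which reads hemimethylated DNA, was at 85.1, 80.7 and 86.5 RPKM and Dnmt1, which it recruits, at 49.9, 49.9 and 52.6. Dnmt3l, the cofactor without activity of its own, stood at 83.7, 83.7 and 84.5 RPKM and overlapped Uhrf1. The de novo enzymes Dnmt3b and Dnmt3a were at 22.5, 23.4 and 21.9 RPKM and at 12.2, 12.4 and 12.5 RPKM, respectively, both below Dnmt3l in every well. Of the demethylation enzymes, Tet1 was at 18.8, 21.8 and 21.5 RPKM, lowest in replicate 1, Tet2 at 11.96 ± 0.424 and Tet3 under the floor at 0.427, 0.421 and 0.379.

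Of Polycomb genes 22 of 25 reached 1 RPKM, at a median of 9.63. Jarid2, the accessory subunit of PRC2 in stem cells, was highest at 85.8, 87.6 and 88.6 RPKM, with the core subunits Eed and Suz12 at 77.2 ± 1.61 and 65.8 ± 2.61 and the accessory Mtf2 at 62.8 ± 1.12. The methyltransferase Ezh2 was at 27.0, 27.0 and 27.1 RPKM, the smallest spread among these, and its paralogue Ezh1 at 2.83 ± 0.146. In PRC1, the ligase Rnf2 stood at 52.8 ± 0.396 RPKM against 5.19 ± 0.227 for Ring1. Cbx7 was at 33.8 ± 0.252 RPKM, while Cbx8 was under the floor at 0.595, 0.344 and 0.462 RPKM. Pcgf2 stood at 39.4 ± 0.724 RPKM and Bmi1 at 2.62 ± 0.189.

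SWI/SNF remodelling genes, 19 of 21 of them at 1 RPKM or more, showed paralogues far apart. The ATPase Smarca4 (Brg1) was at 44.3, 44.2 and 43.8 RPKM and its alternative Smarca2 (Brm) at 0.231, 0.269 and 0.254. Smarcd1 was at 60.7 ± 2.44 RPKM and Smarcd3 at 3.58 ± 0.329. Smarcc1 stood at 56.8 ± 1.14 RPKM and Smarcc2 at 5.58 ± 0.170, and Arid1a at 44.5 ± 1.46 against 2.93 ± 0.223 for Arid1b. In each of these pairs the wells did not overlap. Actl6a was at 51.2 ± 2.02 RPKM, and Dpf3, of heart and neurons, at 0.0908, 0.0598 and 0.0914.

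Silencing of retroelements depends on KRAB zinc finger proteins and their shared corepressor Trim28 (KAP1). Trim28 was at 592, 573 and 552 RPKM (rank 66), the highest member of the 4 chromatin lists. The histone methyltransferase Setdb1, which it recruits, was at 26.1 ± 0.976 RPKM, the demethylase Kdm1a at 54.1 ± 0.717 and Sumo2 at 51.3 ± 2.61. Cbx1 stood at 43.5 ± 1.46 RPKM. In this list 15 of 15 genes reached 1 RPKM, at a median of 28.0. The Zfp family held 387 genes, of which 321 reached 1 RPKM, at a median of 3.44 RPKM. Zfp42 led it, and Zfp57, which protects imprints, stood at 168, 158 and 164 RPKM. Zfp990 (97.7 ± 4.66 RPKM) and Zfp980 (96.6 ± 0.607) came next, neighbours within a cluster on chromosome 4 that also holds Zfp978, Zfp600, Zfp988 and Zfp985 at 83.2, 77.7, 60.9 and 60.5 RPKM. The genes of this cluster resemble one another, so the split of reads among them is uncertain. Pramel genes were low, with 3 of 30 at 1 RPKM, Pramel13 (11.2 ± 0.323 RPKM), Pramel12 (8.05 ± 0.160) and Pramel1 (1.24 ± 0.114), followed by Pramel30 (0.786 ± 0.312). Pramel7, a factor of the inner cell mass, stood at 0.270, 0.213 and 0.271 RPKM.

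Glycolysis genes reached 1 RPKM in 21 of 25 members, and 7 stood at 100 or more. Pkm, pyruvate kinase, was at 379.6, 366 and 369 RPKM and Aldoa at 350.2, 338 and 335. Eno1b was at 281 ± 7.61 RPKM and Pgam1 at 223 ± 1.81, and Eno1b is a near-identical retrocopy of Eno1 (167 ± 5.37 RPKM), so their reads are not separable with certainty. The glucose transporters Slc2a3 and Slc2a1 stood at 146, 149 and 149.6 RPKM and at 99.7, 102 and 95.9 RPKM, respectively, and Slc2a4, which insulin controls in muscle and fat, at 0.596, 0.596 and 0.555. Hk2 was at 21.6 ± 1.00 RPKM against 4.15 ± 0.105 for Hk1, and Ldha at 179 ± 2.91 against 75.3 ± 1.14 for Ldhb. The liver form Pklr stood at 0.308, 0.375 and 0.358 RPKM.

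Tdh, threonine dehydrogenase, feeds glycine and acetyl-CoA in mouse stem cells and was at 192, 186 and 184 RPKM (rank 340), the highest of its list. Gcsh, of the glycine cleavage system, stood at 81.8 ± 3.39 RPKM, Mat2a, which makes S-adenosylmethionine, at 73.7 ± 2.10 and Mthfd1 at 71.6 ± 0.749. Mat2a and Mthfd1 overlapped. Gcat, which acts after Tdh, was lower at 22.0 ± 0.312 RPKM, and Gldc at 11.9 ± 0.722. All 20 listed members reached 1 RPKM, with a median of 24.9.

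Nuclear genes of the respiratory chain had a median of 57.1 RPKM, and 83 of 85 reached 1. Behind Atp5b stood Atp5a1 (337 ± 6.94 RPKM), Cox6a1 (313 ± 19.03) and Cox4i1 (256 ± 5.64). The testis forms Cox8c and Cox7b2 were at 0.754, 0.552 and 1.35 RPKM and at 0.496, 0.653 and 0.570 RPKM, respectively. Mitochondrial ribosomal proteins, all 78 of them at 1 RPKM or more, had a median of 23.2 RPKM, well under the 296 of their cytosolic counterparts. Mrpl12 led at 80.8 ± 6.47 RPKM, then Mrpl2 (76.8 ± 3.36), Mrpl18 (68.3 ± 2.12) and Mrpl28 (67.9 ± 0.333). Proteasome genes stood at a median of 54.4 RPKM, with Psmc5 at 188 ± 7.94, Psma6 at 173 ± 2.62, Psmc4 at 135 ± 3.73 and Psmb6 at 130.4 ± 1.79. Psmb8, a subunit of the immunoproteasome, had 4, 0 and 2 counts.

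Telomere genes reached 1 RPKM in 14 of 15 members, at a median of 15.3, and included the accessory proteins of telomerase at high level. Nhp2 was at 205 ± 7.45 RPKM, Nop10 at 79.5 ± 3.17, Dkc1 at 78.2 ± 1.05 and the shelterin protein Terf1 at 57.4 ± 0.896. The reverse transcriptase Tert stood at 3.72, 3.68 and 3.68 RPKM. Its RNA template Terc was at 0.726, 0.837 and 1.64 RPKM, highest in replicate 3. Nhp2, Nop10 and Dkc1 also serve other box H/ACA particles.

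Adhesion genes reached 1 RPKM in 16 of 20 members and were led by fibronectin (Fn1) at 83.5, 89.3 and 89.5 RPKM. E-cadherin (Cdh1) was at 47.4, 45.5 and 45.7 RPKM and N-cadherin (Cdh2) at 0.832, 0.834 and 0.890. The wells of the cadherins did not overlap. Vimentin (Vim), a filament of mesenchymal cells, was at 44.2 ± 0.809 RPKM. The integrin chains Itgb1 and Itga5, which bind fibronectin, stood at 33.4 ± 1.28 and 25.9 ± 0.562 RPKM, and Epcam at 22.7 ± 0.631. Ocln, a tight junction protein, was under the floor at 0.800, 0.718 and 0.805 RPKM.

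Imprinted genes, expressed from 1 parental copy, spread from high to nearly silent, with 15 of 17 at 1 RPKM or more. Snrpn was at 89.5, 90.3 and 87.0 RPKM, Grb10 at 48.8 ± 1.20, Peg10 at 36.3 ± 2.199 and Impact at 23.4 ± 1.25. The noncoding Meg3 and Rian, both expressed from the maternal copy of 1 domain, were both detected, at 5.98, 5.83 and 5.39 RPKM and at 6.27, 6.32 and 6.12 RPKM, respectively. The paternally expressed Dlk1 of that domain stood at 1.21, 1.82 and 1.08 RPKM. Igf2 was at 1.35 ± 0.103 RPKM and H19 under the floor at 0.624, 0.534 and 0.628.

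Y-linked RNAs were present and Xist was close to absent, with 9 of 13 of the sex-linked list at 1 RPKM or more. The Y-linked helicase Ddx3y was at 20.8, 20.7 and 21.1 RPKM and its X-linked counterpart Ddx3x at 181 ± 3.07. The translation factor Eif2s3y was at 16.7, 15.9 and 16.2 RPKM and Eif2s3x at 69.1 ± 1.76. Uty was at 3.41, 3.24 and 3.69 RPKM and its counterpart Kdm6a at 13.9 ± 0.745. In each pair the wells of the X-linked gene lay above those of the Y-linked gene. Kdm5d, also Y-linked, had only 2, 3 and 2 counts, at or under the floor of 3 counts per library (0.0100 RPKM for this long gene), while its X-linked counterpart Kdm5c stood at 32.7 ± 0.712 RPKM. Xist, the RNA that coats an inactive X, had 13, 17 and 13 counts over 17946 bases (0.0278, 0.0479 and 0.0280 RPKM). Tsix, its antisense partner, stood at 1.54 ± 0.0278 RPKM. Whether counting used strand is not stated in those sources, so reads of Xist and Tsix cannot be told apart with certainty. On the X chromosome, 356 of 948 annotated protein-coding genes reached 1 RPKM, or 37.6%, against 39.2% to 59.4% on the 19 autosomes. The median level of those genes was 7.14 RPKM on the X and between 6.21 and 11.9 on the autosomes. On the Y chromosome 5 of 183 reached it.

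Promoter CpG content was higher in classes of higher RNA level. CpG content was taken as the observed over expected number of CpG steps in 300 bases, from 250 before to 50 after the start, for 14029 protein-coding genes with a single RefSeq start. This matched 9433 of the 15155 protein-coding genes in the table. The median was 0.876 in 252 genes at 100 RPKM or more, 0.833 from 10 to 100, 0.765 from 1 to 10 and 0.519 under 1. It was 0.171 in 4596 annotated genes outside the table. The letters GGGCGG, searched on both strands, were in 70.2% of promoters of genes at 100 RPKM or more and in 47.1% of all 14029. The letters TATAAA, on the strand of the gene and from 40 to 15 bases before the start, were in 3.57% and 3.16%. By class, GGGCGG was in 69.9% of promoters from 10 to 100 RPKM, 68.3% from 1 to 10, 51.5% under 1 and 12.01% outside the table, so the 3 highest classes lay close together. TATAAA was in 0.901% from 10 to 100 RPKM, 1.29% from 1 to 10, 2.84% under 1 and 6.24% outside the table. The 3.57% of the highest class rests on 9 of 252 promoters. A start at C followed by at least 4 pyrimidines, the pattern known from messages of the translation machinery, was found in 24.1% of 54 cytosolic ribosomal protein promoters and in 2.23% of all. The pattern was read at the exact annotated start only, so a message whose true start lies elsewhere would be missed. A match is a description of letters and not of a bound factor.

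**Figure D5:**
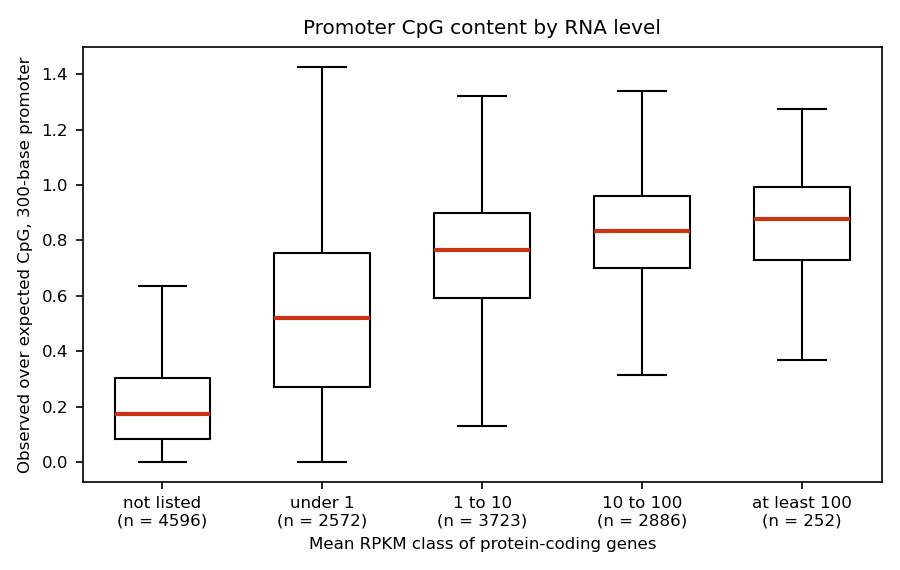
Observed over expected CpG in 300-base promoters of protein-coding genes by mean RPKM class; red lines are medians, boxes quartiles, whiskers reach 1.5 times the quartile range and n is the number of promoters. The median rises from 0.171 in genes outside the table to 0.876 at 100 RPKM or more.

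The pluripotency genes did not all follow that order. Promoters of some of the highest genes are shown so that the difference can be read in the letters, each from 60 bases before to 20 bases after a RefSeq start on GRCm38.p6, with the transcribed part in capitals. Pou5f1 and Nanog have 2 RefSeq starts each, and the first by position is shown for each. The CpG ratio of the full 300-base window was 0.192 at this Nanog start and 0.374 at this Pou5f1 start, against 0.928 at Rplp0, 0.697 at Eef1a1, 0.819 at Sox2 and 0.761 at Trim28. The positions are chr6:122707429-122707508 (plus strand) for Nanog, chr17:35505972-35506051 (plus) for Pou5f1, chr3:34649935-34650014 (plus) for Sox2, chr5:115559407-115559486 (plus) for Rplp0, chr9:78481705-78481784 (minus) for Eef1a1 and chr7:13024092-13024171 (plus) for Trim28.
Nanog: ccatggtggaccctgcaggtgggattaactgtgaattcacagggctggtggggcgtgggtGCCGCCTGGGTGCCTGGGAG
Pou5f1: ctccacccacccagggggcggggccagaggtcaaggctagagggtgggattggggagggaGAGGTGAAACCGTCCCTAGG
Sox2: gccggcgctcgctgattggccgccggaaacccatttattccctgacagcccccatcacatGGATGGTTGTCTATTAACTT
Rplp0: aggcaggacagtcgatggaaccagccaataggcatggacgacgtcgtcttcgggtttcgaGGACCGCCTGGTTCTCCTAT
Eef1a1: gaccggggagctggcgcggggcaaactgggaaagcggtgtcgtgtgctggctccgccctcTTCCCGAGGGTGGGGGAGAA
Trim28: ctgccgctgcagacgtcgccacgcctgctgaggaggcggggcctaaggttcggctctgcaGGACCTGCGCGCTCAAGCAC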

How the data were processed

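RNA of 3 wells of the Cas9 control group was analysed out of 12 libraries. Per the submitters' processing notes, bcl2fastq 2.20 and STAR 2.7.3a with GRCm38 (mm10) were used. The header of the gene length carries the name quasr. Apart from that, the counting tool, its annotation, its use of strand and its handling of reads that fit several places are not stated in the labels or headers. The authors deposited raw counts per gene with no normalization, and RPKM values scaled, per the file headers, by a gene length and a library size. That library size was 0.953 to 0.954 of the total count in these libraries. The table lists 20529 genes, the lowest with 46 counts over 12 libraries.

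Levels and ranks are the deposited RPKM, and depth, shares and spread come from the deposited counts. Gene types and positions are from GENCODE M21 (GRCm38), in which 20505 identifiers were found. The table itself named 17158 genes, the reference another 3357, and 14 had no symbol. The deposited length equalled the union of annotated exons for 98.5% of genes. The spread between wells is the common dispersion of edgeR 4.0.16 in R 4.3.3 (TMM factors, intercept only, 14089 genes) and was tested on simulated data. Pseudogenes were aligned to protein-coding transcripts with blastn 2.17.0, and other values were computed in Python 3.11.15. No groups were compared and no test was run. The wells of a pair of genes were said to overlap where the lowest well of the higher gene did not exceed the highest well of the lower gene. The floor for a gene to be counted as present was 1 RPKM in all 3 libraries.

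The libraries and 52 gene lists were chosen with earlier results of these data known. By rule the text names the 25 highest protein-coding and 10 highest other genes, the leading 4 members of each list with up to 2 members under 1 RPKM, the 10 genes of largest coefficient of variation at 5 RPKM or more and the genes in the labels, leaving out placeholder names. A few genes that the rule or lists would name are not reported here. Further members were named for their role after their values were seen, as were the copies. Alternatives were TPM, lengths from the reference, no length, protein-coding genes only, other floors and scalings, and each library left out.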

Additional observations from a re-analysis of the deposited data

How the results depend on the processing

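The number of genes at 1 RPKM or more stayed within 1.5 times of 14089 under every alternative run, from 10638 with protein-coding genes only to 16030 as TPM, and was 14224 to 14251 with each library left out in turn. The number at 100 RPKM or more, 682, was 1806 as TPM, 400 with protein-coding genes only and 410 without pseudogenes and microRNA hairpins, the latter an alternative chosen after seeing the data. It was 689 to 694 with a library left out. The 100 highest genes held 29.6% of summed RPKM with protein-coding genes only, 29.1% without pseudogenes and hairpins, 26.5% without genes under 300 bases and 27.0% to 27.5% with a library left out. The 100 genes with most counts held 17.3% with protein-coding genes only, 17.1% without pseudogenes and hairpins and 16.6% to 16.7% with a library left out. The coefficient of variation between wells was 0.0397 over all genes, 0.0335 at 10 RPKM or more, 0.0379 with either other scaling and 0.0360 to 0.0387 with a library left out. TPM is larger than RPKM by construction, because its sum per library is set higher than that of RPKM.

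Of 52 lists, 52 kept their median rank within 5 percentile points as TPM and with each library left out, 30 with no length correction and 49 of 51 with protein-coding genes only. The largest moves were 31.9 points for the snoRNA host genes with protein-coding genes only and 20.5 points for the Argonaute and microRNA list with no length correction. Of 235 named genes, 155 did so with no length correction, and mt-Td moved most, by 57.5 points. Adding the reads of copies, also chosen after seeing the data, moved Gapdh from 39.4 to 228 RPKM. No paired analysis was possible because a single group was described with no contrast and no test. Depth limits genes under about 100 counts, where wells differed by 16.3% at the median.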

Other observations

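The genes that varied most between wells were small RNAs with few counts. By the rule for genes of at least 5 RPKM these were mt-Tp, Mir3113, Snord49b, mt-Td, Snord65, Snora44, Mir291b, mt-Tn, Snord14d and Mir8093. mt-Tp, the mitochondrial tRNA for proline, had 7, 2 and 20 counts (4.01, 1.51 and 11.5 RPKM), and mt-Td, for aspartate, 48, 62 and 19 (26.3, 44.8 and 10.5 RPKM). Replicate 3 was highest in mt-Tp and lowest in mt-Td. Snord49b, a guide of RNA methylation, had 19, 4 and 7 counts, and Snord14d 17, 4 and 13. Mir3113 had 10, 18 and 3 counts and Mir8093 19, 23 and 11. Snord65 and Snora44 had 17, 3 and 17 and 20, 5 and 24 counts, lowest in replicate 2, the library of least depth, and mt-Tn had 10, 6 and 20.

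Among genes with at least 1000 counts in every library, a set added after the values were seen, mt-Atp8 and then Lars2 varied most. Lars2, the mitochondrial leucyl-tRNA synthetase, stood at 12.7, 9.01 and 8.84 RPKM (3674, 1977 and 2540 counts) with a coefficient of variation of 21.5%, against a median of 3.01% for genes of 1000 to under 10000 counts. Replicate 1 was the high well. Fat1, a giant cadherin, stood at 11.7, 14.4 and 14.6 RPKM and Nipbl, the cohesin loader, at 13.6, 17.1 and 16.7, and replicate 1 was the low well in both. Mki67, a mark of dividing cells, was also lowest in replicate 1, at 17.8, 20.1 and 21.9 RPKM. The metallothionein Mt2 stood at 204, 207 and 172 RPKM, lowest in replicate 3. The serum response factor Srf was highest in replicate 2, at 18.0, 21.1 and 17.5 RPKM, as were Egr1 and Fos.

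Among entries that are not protein-coding and carry no placeholder name, processed copies of translation genes and of the ubiquitin gene Ubb were highest. Tpt1-ps3 stood at 659 ± 9.97 RPKM, Rps3a3 at 631 ± 18.0, Ubb-ps at 623 ± 7.64 and Eef1a1-ps1 at 553 ± 8.09. Rpl10a-ps1, Rps16-ps2, Eif4a-ps4, Rps4l and Rps24-ps3 ranged from 389.8 to 457 RPKM. Mir6236 was the exception in kind and in spread, at 618, 376 and 410.5 RPKM with 1981, 916 and 1308 counts, highest in replicate 1. Ubb itself, a ubiquitin gene, stood at 657 ± 13.9 RPKM, with all its wells above those of Ubb-ps.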
